A study of Mus musculus with 2 samples.

Results

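The genes described here encode proteins that take part in pre-mRNA splicing, in 4 classes: SR proteins, hnRNPs, small nuclear ribonucleoprotein (snRNP) components and subunits of splicing factor 3. Members were chosen by symbol, as records whose gene name begins with Srsf and a digit, Hnrnp, Snrp, or Sf3 followed by a or b. This rule was set with earlier results of these data known. There were 49 members among 23746 records: 11 SR protein genes, 18 hnRNP genes, 12 Snrp genes and 8 SF3 genes. The symbols that begin with Snrnp, such as Snrnp70, fall outside this choice and are described with the other spliceosome genes.

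RNA was sequenced from 2 mouse medulloblastomas, tumours of the cerebellum, with 1 library per genotype. Both mice carried CAG-CreER, a Cre recombinase that tamoxifen activates and that is driven by the broadly active CAG promoter, and Rosa26-SmoM2, an activated form of the Hedgehog signal transducer Smoothened. Both received 10 tamoxifen injections, and both tumours were described as spontaneous. The genotypes differed at Brg1, the gene Smarca4, which encodes the ATPase subunit of BAF complexes, which remodel chromatin: the wild-type animal was Brg1+/+ and the knockout animal Brg1F/F, with loxP-flanked alleles. The sources used here do not give the age of the animals. The comparison addresses how gene expression in the tumour differs when Brg1 is deleted.

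Splicing removes introns from pre-mRNA in the spliceosome, which is built from snRNPs that carry small nuclear RNAs. The Sm proteins form a ring around these RNAs, and splicing factor 3 (SF3a and SF3b) belongs to the U2 snRNP and holds the branch site. SR proteins carry RNA recognition motifs and a tail rich in arginine and serine, and they commonly promote the use of the exons they bind. Many hnRNPs package nascent transcripts and can oppose SR proteins at splice sites. Most of these genes are expressed in nearly every cell type, and several are known to be expressed strongly in dividing cells.

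Values are FPKM as the authors deposited them, fragments scaled to the length of the transcript and to the size of the library. A difference is given as log2((knockout FPKM + 1)/(wild-type FPKM + 1)), which makes the ratio of a low gene smaller than on the FPKM scale. Records with status OK in both libraries and at least 1 FPKM in at least 1 of them were compared, 13244 in all. With 1 library per genotype there is no error between replicates and no p-value, so a fixed rule of size, a 2-fold difference either way (log2 ratio beyond 1 or -1), stands in place of a test. Where 2 values stand side by side the wild type comes first. "Higher" and "lower" compare these 2 libraries, and the genotype cannot be told apart from the animal. In bulk tissue, fewer cells of a type and less RNA per cell cannot be told apart either.

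Smarca4, the targeted gene (chromosome 9, 21616169 to 21704230, mm10), had 14.0 FPKM in the wild-type and 3.76 in the knockout tumour, a log2 ratio of -1.66. FPKM of the whole gene also counts exons outside the deleted part. All 10 markers of the Hedgehog-driven tumour were detected in both libraries and 9 passed the rule with the knockout lower, with summed FPKM of 817.2 and 195.8. So did all 20 cell cycle genes, with sums of 1492 and 408.5 FPKM. Markers of mature cells went the other way. At least 2-fold higher were 9 of 10 granule neuron markers (sums of 187.9 and 931.2 FPKM), 10 of 10 Purkinje cell markers (74.0 and 1552 FPKM), 6 of 6 interneuron markers (61.0 and 538.8 FPKM), 9 of 10 astrocyte markers (477.9 and 1804 FPKM), 9 of 9 compared oligodendrocyte markers (71.2 and 719 FPKM), 8 of 10 microglia markers (270.8 and 634.4 FPKM) and 3 of 9 compared endothelial markers (45.3 and 149.8 FPKM). None of these marker genes was listed at 0 in either library. The Hedgehog and cell cycle lists went in the direction of most splicing genes below and the other lists in the opposite direction, and their part in the results was not tested.

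The splicing genes were mostly lower in the Brg1 knockout library. Of the 49 members 48 were compared: 14 were at least 2-fold lower, 1 was at least 2-fold higher and 33 stayed within 2-fold. Among all compared records 8.64% were at least 2-fold lower and 16.1% at least 2-fold higher. The log2 ratio was below 0 for 43 of the 48 members, against 45.2% of all compared records. The median log2 ratio of the members was -0.83, with an interquartile range of -1.06 to -0.45, and that of all compared records was 0.09. Summed over members, FPKM was 6624 and 3639, which is 54.9% of the wild-type sum. Their share of all FPKM was 1.71% in the wild-type and 1.06% in the knockout library.

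**Figure D1:**
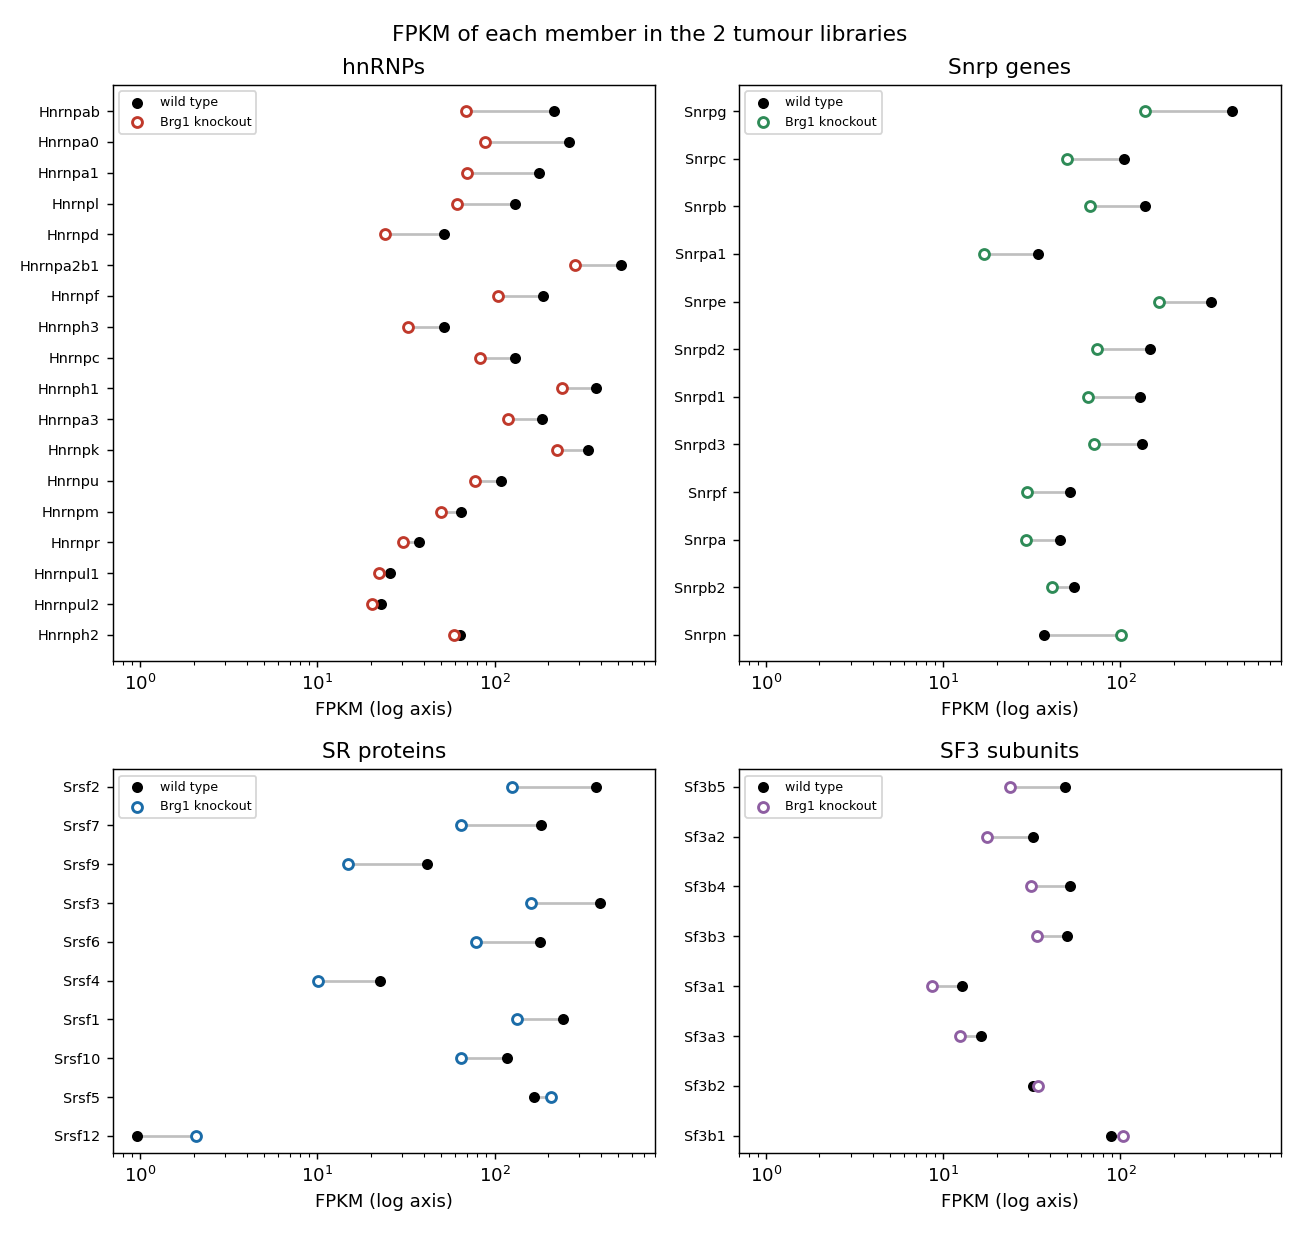
FPKM of each compared member on a log axis, 1 panel per class, with filled points for the wild-type library and open points for the Brg1 knockout library joined by a line. The open point lies to the left, at lower FPKM, for 43 of 48 members, and Snrpn is the member that lies furthest to the right of its wild-type value.

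The 4 classes differed in how far they were shifted. The median log2 ratio was -1.14 for 10 SR protein genes, -0.96 for 12 Snrp genes, -0.64 for 18 hnRNP genes and -0.54 for 8 SF3 genes. At least 2-fold lower were 6 of the SR protein genes, 5 of the hnRNP genes, 3 of the Snrp genes and 0 of the SF3 genes. The classes overlapped widely. The SR protein genes ranged from -1.57 to 0.65, the hnRNP genes from -1.62 to -0.11, the Snrp genes from -1.62 to 1.43 and the SF3 genes from -0.9994 to 0.21. All 18 hnRNP genes had lower FPKM in the knockout library, although Hnrnph2 (0.06) and Hnrnpul2 (0.003) had a log2 ratio just above 0 once both libraries were scaled to the same sum.

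**Figure D2:**
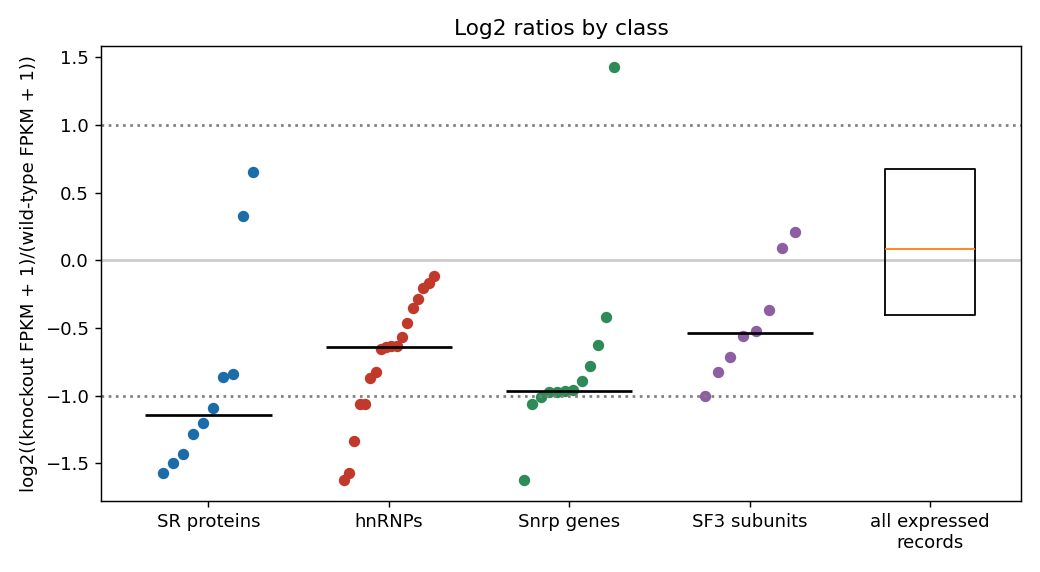
Log2 ratio (knockout over wild type, 1 FPKM added) of each compared member by class, with black bars at the class medians, and a box for the median and interquartile range of all 13244 compared records. Dotted lines mark 2-fold, and the class medians lie between -1.14 and -0.54 against 0.09 for all records.

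Among the SR protein genes, 3 of the 4 lowest log2 ratios were those of Srsf2, Srsf7 and Srsf3, whose proteins have a single RNA recognition motif. Srsf2 (chromosome 11, 116849897 to 116853094), whose protein binds exonic enhancers, had 373 and 124.8 FPKM (log2 ratio -1.57). Its FPKM lay outside the deposited bounds described below in both libraries, and with their midpoints in its place the log2 ratio was -1.35, above those of Srsf7 (-1.51) and Srsf9 (-1.44). Srsf3, which encodes the smallest classical SR protein and is the most abundant SR gene of the wild-type library, had 394 and 161 FPKM (log2 ratio -1.29). Srsf7, a close relative of Srsf3 that carries a zinc knuckle, had 183.6 and 64.5 FPKM (log2 ratio -1.50). These 3 genes kept 33.4%, 40.9% and 35.1% of their wild-type FPKM. Srsf10, whose protein is known to act as a splicing repressor when dephosphorylated, had 117.0 and 64.8 FPKM and stayed within 2-fold (log2 ratio -0.84). Summed over the 5 compared genes of this kind, FPKM was 1069 and 417.

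The 5 SR genes with a pair of RNA recognition motifs had log2 ratios from -1.43 to 0.32. Srsf9 had 41.8 and 14.8 FPKM (log2 ratio -1.43), and Srsf6 had 180.9 and 78.3 FPKM (log2 ratio -1.20). Srsf4 had 22.5 and 10.1 FPKM, a log2 ratio of -1.09 that lies just past the 2-fold rule. Srsf1, the founding SR protein and a regulator of many exons, had 244.4 and 133.9 FPKM and stayed just within 2-fold (log2 ratio -0.86). Srsf5 was the exception among abundant SR genes, with 167.3 and 209.6 FPKM (log2 ratio 0.32). The order within the class differed between the tumours: Srsf5 stood at 0.425 of the FPKM of Srsf3 in the wild-type library and at 1.30 of it in the knockout library, where it was the most abundant SR gene.

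The remaining 2 SR genes give little. Srsf12 had 0.958 and 2.07 FPKM (log2 ratio 0.65), so it entered the comparison only through its higher value in the knockout library. Srsf11 was listed at 0 FPKM with the status FAIL in the wild-type library and at 21.9 FPKM with the status OK in the knockout library. It was left out, since a failed estimate is not a level.

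The hnRNP genes form families that differed in level and in ratio. In the A and B family, Hnrnpa2b1 (chromosome 6, 51460435 to 51469894) was the most abundant of all members in both libraries, with 518.7 and 283.5 FPKM (log2 ratio -0.87, just within 2-fold). Its protein and that of Hnrnpa1 bind exonic silencers. Hnrnpa1 had 178.4 and 70.0 FPKM (log2 ratio -1.34) and Hnrnpa0, a gene without introns in its coding part, had 263.7 and 88.1 FPKM (log2 ratio -1.57). The FPKM of Hnrnpa0 lay outside the deposited bounds described below in both libraries. From their midpoints its log2 ratio was -1.25, above that of Hnrnpa1 (-1.34). Hnrnpa3 had 184.7 and 119.0 FPKM (log2 ratio -0.63). Together these 4 genes had 48.9% of their wild-type FPKM in the knockout library.

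Hnrnpab had the lowest log2 ratio of all members, -1.62, with 215.9 and 69.4 FPKM. Its relative Hnrnpd, which encodes the AU-rich element binding protein AUF1, had 51.6 and 24.2 FPKM (log2 ratio -1.06). Hnrnpl, whose protein binds CA-rich RNA, had 129.6 and 61.5 FPKM (log2 ratio -1.06). With Hnrnpa0 and Hnrnpa1 these are the 5 hnRNP genes at least 2-fold lower.

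The H and F family, whose proteins bind runs of G, stayed within 2-fold. Hnrnph1 had 375.0 and 240.8 FPKM (log2 ratio -0.64) and Hnrnpf had 186.9 and 104.8 FPKM (log2 ratio -0.83). The X-linked relative Hnrnph2 had 64.0 and 59.1 FPKM, a log2 ratio of -0.11, or -0.34 from the midpoints of the bounds described below. Hnrnpk, which encodes a KH-domain protein that binds C-rich sequence, had 336.1 and 226.4 FPKM (log2 ratio -0.57) and was among the 3 most abundant hnRNP genes. The scaffold-attachment gene Hnrnpu had 108.1 and 78.0 FPKM, and its relatives Hnrnpul1 and Hnrnpul2 had log2 ratios of -0.20 and -0.17. From the midpoints those of Hnrnpul1 and Hnrnpul2 were -0.21 and -0.54. The other 4 hnRNP genes, Hnrnpc, Hnrnph3, Hnrnpm and Hnrnpr, had log2 ratios from -0.65 to -0.28.

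The 7 genes of the canonical Sm ring, Snrpb, Snrpd1, Snrpd2, Snrpd3, Snrpe, Snrpf and Snrpg, were all lower in the knockout library, with log2 ratios from -1.62 to -0.78. Their proteins sit in the ring as 1 copy each, but their FPKM ranged from 51.7 (Snrpf) to 424.9 (Snrpg) in the wild-type library. For 6 of the 7 the FPKM lay outside the deposited bounds described below in both libraries. The midpoints of those bounds ran from 52.0 (Snrpf) to 310.1 (Snrpg) in the wild-type library. Snrpg (chromosome 6, 86371540 to 86378902) had 137.6 FPKM in the knockout library, a log2 ratio of -1.62. Snrpe had 322.7 and 164.2 FPKM (log2 ratio -0.97). Snrpd2 had 146.0 and 74.1 FPKM (log2 ratio -0.97), Snrpd1 had 129.2 and 65.9 FPKM (-0.96), and Snrpd3 had 132.9 and 71.0 FPKM (-0.89). Snrpb, with 137.1 and 67.7 FPKM, had a log2 ratio of -1.01. Of these 7 genes 5 lay between -1.01 and -0.89, so the 2-fold rule divides genes of nearly the same FPKM ratio. From the midpoints these 5 ran from -1.23 (Snrpd1) to -0.89 (Snrpb). Summed over the ring, FPKM was 1345 in the wild type and 610.3, or 45.4% of that, in the knockout.

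Snrpn was the 1 member past the 2-fold rule with the knockout higher. It encodes SmN, a relative of the Snrpb product that replaces it in neurons, and is expressed from the paternal allele. Snrpn (chromosome 7, 59982502 to 60140219) had 36.8 and 100.8 FPKM, a log2 ratio of 1.43. Centred on the median of records with a locus of similar length, its log2 ratio was 0.91, inside the 2-fold rule, so that no (0) member was then past it with the knockout higher. The ratio of Snrpn to Snrpb FPKM was 0.268 in the wild-type and 1.49 in the knockout library, so the order of this pair was reversed. Their longest GENCODE transcripts were 80.9% identical over 687 aligned bases. Snurf, which shares transcripts with Snrpn and overlaps its record, had 18.4 and 47.9 FPKM (log2 ratio 1.33). Markers of neurons were higher in the same library: the median log2 ratio was 2.79 for granule neurons, 4.82 for Purkinje cells and 3.69 for interneurons. Their part in the Snrpn value was not tested.

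Genes of proteins specific to single snRNPs were lower as well. Of the U1 proteins, Snrpc had 104.7 and 49.6 FPKM (log2 ratio -1.06) and Snrpa had 45.4 and 29.2 FPKM (-0.62). Of the U2 proteins, Snrpa1 had 34.1 and 16.9 FPKM (-0.97, just within 2-fold) and Snrpb2 had 54.9 and 40.9 FPKM (-0.42).

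No SF3 gene (0 of 8) passed the 2-fold rule in either direction. Sf3b1 (chromosome 1, 54985170 to 55027478), the large scaffold subunit that clamps the branch site and is mutated in human blood cancers, had 88.8 and 102.9 FPKM (log2 ratio 0.21), the highest FPKM of the class. Sf3b5, the smallest subunit, had 48.7 and 23.9 FPKM, and its log2 ratio of -0.9994 lies at the very edge of the rule. Sf3b4 had 52.1 and 31.4 FPKM (-0.71), Sf3b3 had 50.2 and 33.8 FPKM (-0.56) and Sf3a2 had 32.1 and 17.6 FPKM (-0.83). Sf3a1 and Sf3a3 had log2 ratios of -0.52 and -0.37. Sf3b2 had 31.9 and 34.0 FPKM (0.09), and its direction was opposite, at -0.23, when the bounds described next were used. By the midpoints of those bounds Sf3b2 (109.1 and 92.6 FPKM) stood above Sf3b1 (82.5 and 89.2 FPKM) in both libraries. Summed FPKM was 79.5% of the wild-type value for SF3 genes, against 50.1% for SR protein genes, 52.3% for Snrp genes and 56.5% for hnRNP genes.

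Each FPKM was deposited with a lower and an upper bound, made in a way that the sources used here do not give. The FPKM lay outside its own bounds in 1 or both libraries for all but 18 of the 48 members, and in both libraries for 25. Among all compared records 49.1% lay outside in the wild-type and 51.3% in the knockout library. For Hnrnpu the wild-type FPKM of 108.1 was 0.398 of the midpoint of its bounds (271.4), and for Sf3b2 it was 0.292 of the midpoint. The bounds did not overlap between libraries for any member: the knockout interval lay below for 44 and above for 4. This is no strong mark of a difference, since the same was true, with the knockout below, for 36.1% of all compared records and, with the knockout above, for 41.6%.

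With the midpoint of the bounds in place of FPKM, 15 members were at least 2-fold lower and 1 higher, against 8.71% and 15.6% of all compared records. The median log2 ratio was -0.82, and the class medians were -1.17 for SR protein, -0.94 for Snrp, -0.68 for hnRNP and -0.65 for SF3 genes. The largest shift among the Sm genes was that of Snrpd1, from -0.96 to -1.23. Snrpb and Snrpc moved to -0.89 and -0.99, inside the 2-fold rule, while Snrpd2 (-1.05) and Snrpe (-1.09) moved past it.

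**Figure D3:**
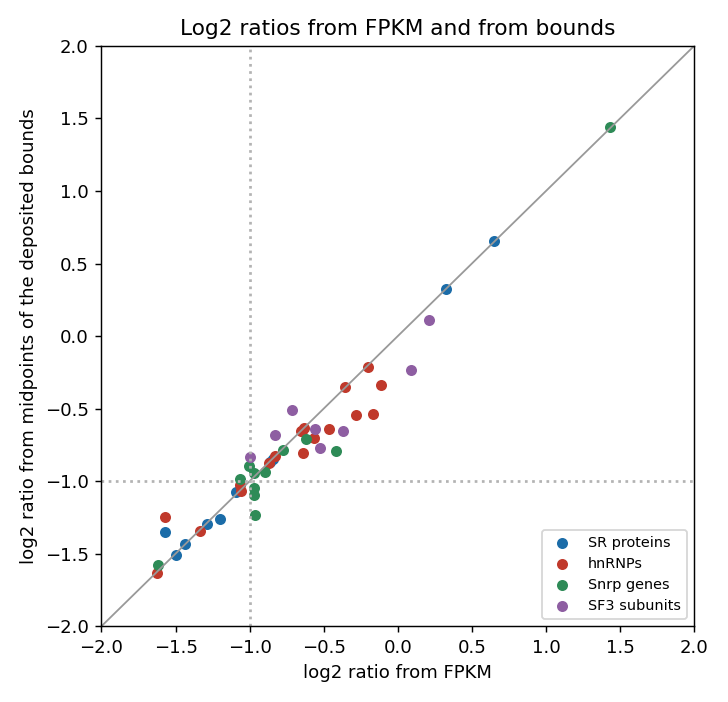
Log2 ratio of each compared member from FPKM (horizontal axis) against the same ratio computed on bound midpoints (vertical axis), with the line of equality and dotted lines at 2-fold lower. Most points lie on or near the line, with Sf3b2 at 0.09 and -0.23 the only one whose sign differs.

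The size of the shift also depends on how the libraries are scaled. FPKM summed to 388032 in the wild-type and 343028 in the knockout library. Rescaling both to the same sum moved the median of all compared records from 0.09 to 0.24. On that scale 9 members were at least 2-fold lower and 1 higher, against 6.53% and 19.4% of all compared records. Hnrnpd, Hnrnpl, Snrpb, Snrpc and Srsf4 moved inside the 2-fold rule, with log2 ratios from -0.92 to -0.83. The median of the members was -0.65, which is 0.90 below that of all compared records, against 0.91 below on the deposited scale.

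Members were abundant genes, and abundant genes as a whole were lower more often. In the decile of compared records with the highest mean FPKM (46.4 or more) there were 30 members, of which 11 were at least 2-fold lower and 1 higher, with a median log2 ratio of -0.88. Among the other 1295 records of that decile, 17.6% were at least 2-fold lower and 14.0% higher, with a median of -0.13. Across the 48 members the log2 ratio and the log10 wild-type FPKM had a Pearson r of -0.53 (Spearman rho -0.50), a description only, since both hold the wild-type value.

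Transcript length, to which FPKM is scaled, was also set beside the ratio. These lengths come from GENCODE and not from the authors' annotation: the GENCODE transcript of Sf3b5 has 3841 bases, but its deposited locus spans 734. The median log2 ratio of all compared genes went from -0.03 in the decile with the shortest transcripts (median length 611 bases) to 0.23 in the decile with the longest (6179 bases). The median of the members lay below that of all compared genes in each of the 10 deciles, which hold 2 to 11 members each, with values from -0.97 to -0.17. After each gene was centred on the median of its decile, the class medians were -1.26 for SR protein genes, -0.95 for Snrp genes, -0.72 for hnRNP genes and -0.72 for SF3 genes. Across the 48 members the Pearson r of log2 ratio and log10 length was 0.27 (Spearman rho 0.28).

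**Figure D4:**
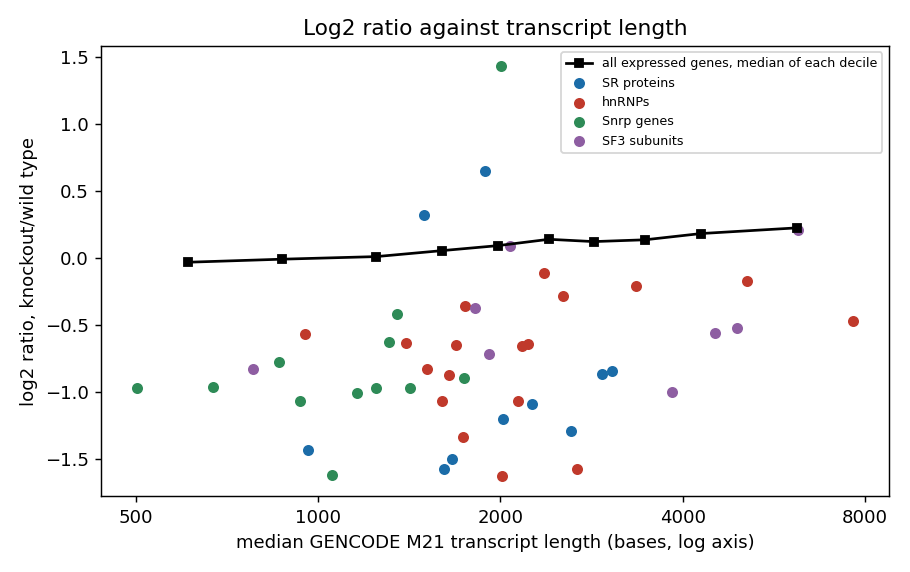
Log2 ratio of each compared member against the median length of its GENCODE M21 transcripts in bases (log axis), with black squares for the median of all compared genes in each decile of length. The squares run from -0.03 to 0.23, and most members lie below them at every length.

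The other genes of the splicing machinery, in lists that are not part of the 4 classes, were shifted less evenly. Of all compared records 8.64% were at least 2-fold lower and 16.1% at least 2-fold higher, or 8.71% and 15.6% from the midpoints. LSm proteins, most of which form the ring on U6 RNA or act in mRNA decay, had a median log2 ratio of -0.90, and 3 of 9 were at least 2-fold lower: Lsm2 (47.8 and 11.1 FPKM, -2.01), Lsm4 (39.5 and 16.2 FPKM, -1.23) and Lsm5 (85.3 and 38.6 FPKM, -1.12). From the midpoints of the bounds 5 of 9 were, with Lsm3 (-1.13) and Lsm7 (-1.09) added. Of 16 proteins known as hnRNPs or their relatives under other symbols, 4 were at least 2-fold lower and 0 higher (median -0.62). These were Ptbp1, the polypyrimidine tract binding protein that represses neuronal exons (162.9 and 39.2 FPKM, -2.03), Pcbp1 (163.5 and 58.1 FPKM, -1.48), Taf15 (41.6 and 16.5 FPKM, -1.28) and Hnrpdl (146.0 and 66.6 FPKM, -1.12). The cold-inducible gene Cirbp had 82.6 and 123.8 FPKM (0.58).

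Genes that assemble snRNPs, the SMN and PRMT5 complexes and their partners, had a median of -0.57. Of 16 such genes 1 passed the rule, Gemin6 (10.6 and 3.88 FPKM, -1.25), which is below the 8.64% of all compared records. A log2 ratio below 0 was found for 15, against 45.2% of all compared records. From the midpoints 2 passed, with Sip1 at -1.12. U2 recruitment and branch-site factors had a median of -0.58 with 0 of 14 past the rule. Their 2 most abundant genes were the helicase gene Ddx39b (203.6 and 113.9 FPKM, -0.83) and U2af2, whose protein binds the polypyrimidine tract (94.1 and 50.5 FPKM, -0.88).

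The Prp19 complex and catalytic-step factors had a median of -0.05. At least 2-fold lower was 1 of 22, the cyclophilin gene Ppil1 (60.1 and 16.02 FPKM, -1.84), which is below the 8.64% of all compared records. From the midpoints 2 were, with Ppie at -1.08. U5 and tri-snRNP proteins had a median of -0.42 with 0 of 14 past the rule, and their most abundant genes were Nhp2l1 (153.9 and 97.4 FPKM, -0.66) and Txnl4a (55.6 and 41.3 FPKM, -0.42). The 7 genes with Snrnp symbols had a median of -0.06 from FPKM and -0.47 from the midpoints, and none (0) passed by either. The FPKM of all 7 lay outside the bounds in both libraries, and the knockout bounds lay below those of the wild type for 6. The U1 gene Snrnp70 had 64.1 and 57.01 FPKM (-0.17), and the U5 gene Snrnp40 had 51.2 and 27.4 FPKM (-0.88). From FPKM 4 of the 7 had a log2 ratio below 0 and 3 above. The highest was that of Snrnp200 (15.4 and 25.4 FPKM, 0.69, and 0.51 from the midpoints). Minor spliceosome genes had a median of 0.00, with Zrsr1 (1.16 and 5.18 FPKM, 1.51) at least 2-fold higher among 8. That share is below the 16.1% of all compared records.

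Partners of the SR proteins had medians closer to 0 than the SR class. Among 20 SR-related genes the median was -0.17 and 1 was at least 2-fold lower, which is below the 8.64% of all compared records. This was Tra2a (112.8 and 40.8 FPKM, -1.44), whose protein acts with SR proteins at enhancers. From the midpoints 2 were, with Tra2b at -1.10. SR protein kinases and the import receptor Tnpo3 had a median of -0.24 with 0 of 9 past the rule. The most abundant were Clk1 (88.7 and 108.6 FPKM, 0.29) and Tnpo3 (35.6 and 29.8 FPKM, -0.25). Whether any list differs from another was not tested.

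**Figure D5:**
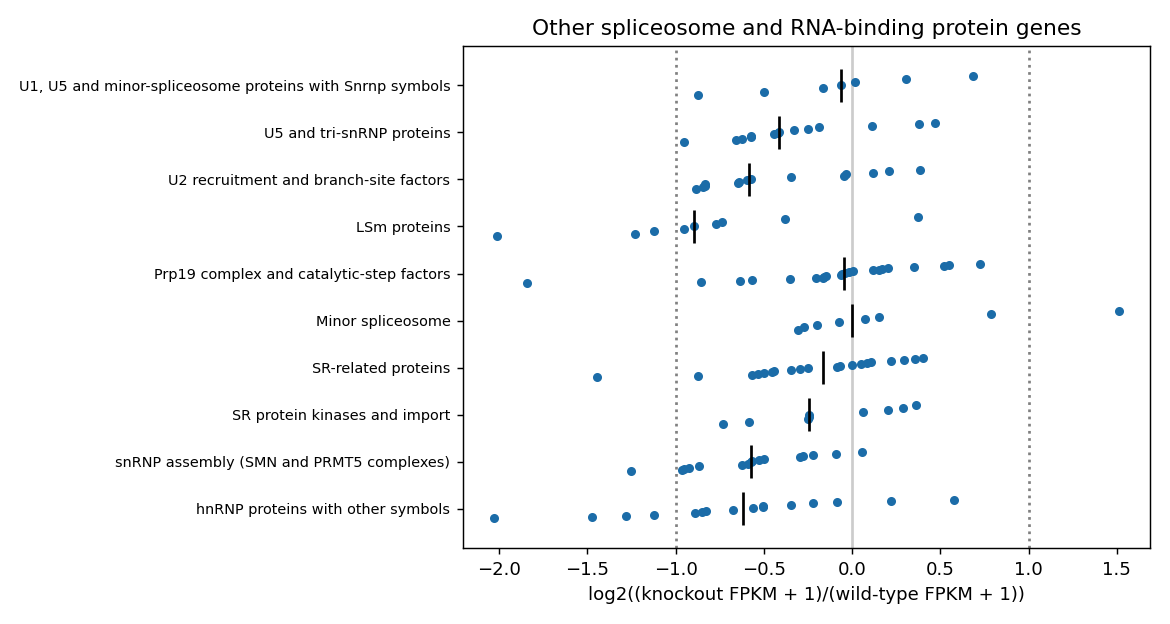
Log2 ratio (knockout over wild type, 1 FPKM added) of each compared gene in 10 lists of other splicing and RNA-binding protein genes, with black bars at the list medians and dotted lines at 2-fold. List medians run from -0.90 for LSm proteins to 0.00 for the minor spliceosome.

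Upstream sequence was examined because most members were lower together while Srsf5 and Snrpn were not. The windows below hold the 120 bases before the RefSeq start site on GRCm38.p6 (mm10 coordinates), written 5′ to 3′ on the strand of the gene, for 5 of the lowest members, chosen after their values were seen, for Srsf5 and Snrpn, and for Sf3a2 from the class that stayed within 2-fold. Snrpn has several RefSeq starts, and the one nearest the end of its record is shown. Capitals mark matches on either strand to the motifs named after them.
Srsf2, chr11:116853095-116853214, minus strand: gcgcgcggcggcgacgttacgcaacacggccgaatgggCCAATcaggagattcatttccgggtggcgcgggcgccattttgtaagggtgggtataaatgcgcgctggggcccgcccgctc
Srsf3, chr17:29032540-29032659, plus strand: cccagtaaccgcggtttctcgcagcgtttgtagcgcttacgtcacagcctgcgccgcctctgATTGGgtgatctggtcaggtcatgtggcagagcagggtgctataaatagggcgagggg
Srsf5, chr12:80945379-80945498, plus strand: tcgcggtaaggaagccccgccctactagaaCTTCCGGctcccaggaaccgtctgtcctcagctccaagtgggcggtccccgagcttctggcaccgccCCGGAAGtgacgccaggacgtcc
Hnrnpab, chr11:51606882-51607001, minus strand: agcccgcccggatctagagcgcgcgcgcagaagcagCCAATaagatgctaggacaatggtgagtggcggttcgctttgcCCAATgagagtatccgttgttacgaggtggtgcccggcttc
Hnrnpa1, chr15:103240277-103240396, plus strand: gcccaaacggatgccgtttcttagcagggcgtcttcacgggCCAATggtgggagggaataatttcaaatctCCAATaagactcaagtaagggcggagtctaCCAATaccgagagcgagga
Snrpg, chr6:86371420-86371539, plus strand: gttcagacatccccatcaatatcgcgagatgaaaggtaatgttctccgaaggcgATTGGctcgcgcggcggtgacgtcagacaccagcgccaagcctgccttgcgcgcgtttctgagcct
Snrpn, chr7:60140226-60140345, minus strand: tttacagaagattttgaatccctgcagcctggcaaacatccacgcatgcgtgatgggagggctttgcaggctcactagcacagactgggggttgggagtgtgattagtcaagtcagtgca
Sf3a2, chr10:80798615-80798734, plus strand: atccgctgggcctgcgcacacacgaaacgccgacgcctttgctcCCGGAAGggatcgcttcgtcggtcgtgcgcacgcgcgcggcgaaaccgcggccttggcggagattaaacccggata

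Strings of letters were searched on both strands in the 250 bases before each start: CCAAT (the NF-Y box), CCGGAAG (an ETS site), CACGTG (the E-box of Myc proteins), GCGCATGC (NRF1), TTTGGCGC (E2F) and AAGATGGC (YY1). The NRF1 letters can overlap themselves on the other strand. A gene counted once if any of its starts matched. Of 49 members 44 had an entry; Hnrnpul2, Sf3b4, Sf3b5, Snrpb and Snrpd1 did not. CCAAT was found upstream of 13 of 17 hnRNP genes (76.5%) and of 22 of 44 members (50%), against 41.0% of 9413 expressed genes with an entry and 37.5% of all 27025 genes. The other classes lay below the share of expressed genes: 3 of 11 SR protein genes (27.3%), 4 of 10 Snrp genes (40%) and 2 of 6 SF3 genes (33.3%). Snrpn is 1 of these 4 Snrp genes, through another start that lies outside its record and whose window is not shown. Hnrnpa1 and Hnrnpab hold 3 and 2 copies in the windows shown. The windows shown for the members at least 2-fold lower all hold CCAAT. Those of Srsf5, Snrpn and Sf3a2 do not, although Sf3a2 was also lower (log2 ratio -0.83). This choice of windows does not stand for the members. Srsf7 and Srsf9, with lower log2 ratios than Srsf3 and Hnrnpa1, hold no CCAAT in the 250 bases. Hnrnpr and Hnrnph2, which stayed within 2-fold, hold several copies there. CCGGAAG was found upstream of 14 of 44 members (31.8%), among them 5 of the 6 SF3 genes with an entry, against 15.0% of expressed genes and 7.83% of all genes. In the other classes it was found for 4 of 11 SR protein genes, 3 of 10 Snrp genes and 2 of 17 hnRNP genes. CACGTG was found for 4 of 44 members (9.09%), against 9.87% of expressed genes. For the 13 members at least 2-fold lower that had an entry, the numbers were 7 for CCAAT (53.8%), 5 for CCGGAAG (38.5%) and 1 for CACGTG (7.69%). GCGCATGC matched 3 members, AAGATGGC 1 and TTTGGCGC 0, against 5.01%, 2.31% and 0.967% of expressed genes. A match describes the letters only, not a bound site.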

How the data were processed

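RNA of 2 tumours was measured, 1 library per genotype. The authors deposited FPKM for each gene together with its bounds and its status, per the file headers. Cuffdiff 2.1.1 and the build mm10 are named in the submitters' processing notes. Aligner, annotation, strand setting and filters: not given in the sources used here. Depth is unknown, since the files hold no counts, so no counting interval can be given.

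Records were joined across libraries by symbol and locus. Starts count from 0 in the files and from 1 here. Records with status OK in both libraries (23456 of 23746) and at least 1 FPKM in at least 1 were compared by log2 ratio with 1 FPKM added. Every member could be named. Described in full were, per class, the 3 with the highest mean FPKM, the highest and lowest ratios, and those past 2-fold or within 0.15 (log2) of it. From each other list, genes past 2-fold (at most 6), or otherwise the 2 most abundant, were named. Cirbp, Snrnp40, Snrnp70, Snrnp200 and the genes past 2-fold only by midpoints were named after their values were seen. Members, gene lists and rules were chosen with earlier results of these data known.

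Transcript lengths are medians over protein-coding GENCODE M21 transcripts, matched by symbol for 49 members and 90.9% of compared records. The ratio, the size rule and the centring were tested on simulated data. Python 3.11.15, numpy 2.4.6, pandas 2.3.3, scipy 1.17.1 and matplotlib 3.10.9 were used. Alternatives covered the added FPKM, scaling, length, bounds, filters, status, genes at several loci and the size of the threshold. The planned centring by protein length was run on the length of the locus, as the plan allowed where no protein table was at hand. Centring by transcript length and the restriction to FPKM within bounds were chosen after seeing the data.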

Additional observations from a re-analysis of the deposited data

How the results depend on the processing

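The median log2 ratio of all members stayed between -0.91 and -0.65 under every alternative run. Those of hnRNP and SF3 genes kept their sign wherever they could be taken. The restriction to FPKM within the bounds in both libraries left 0 SF3 genes and so no SF3 median. Where FPKM was rescaled to the same sum, 9 members were at least 2-fold lower, against 6.53% of all compared records. Of these 3 were hnRNP genes and 1 a Snrp gene, and the SR median was -0.97. Division by the upper quartile gave 6 lower Snrp genes (median -1.002) and 1 lower SF3 gene, against 9.24% of all compared records. Centring on the median of all records gave 7 (median -1.05) and 1, against 10.1%. The lone SF3 gene was Sf3b5, which was also past the rule with 0.1 or 0.5 FPKM added (1 each) and after centring by transcript length (1). By these 3 settings 10.9%, 9.83% and 10.1% of the records compared were lower. With 0.1 FPKM added 2 members were higher, 1 of them the SR gene Srsf12, against 21.4% of all compared records. Without regard to status 2 were higher, against 16.1%. Of these 1 was the SR gene Srsf11, whose wild-type value is a failed estimate. Centring by the length of the locus left 0 members and 0 Snrp genes higher, with Snrpn at 0.91, against 13.8% of all compared records. A 1.5-fold rule gave 32 lower members (11 hnRNP, 10 Snrp and 3 SF3 genes) and 2 higher (1 an SR gene), against 17.9% and 28.04% of all compared records. A 3-fold rule gave 2 lower (1 hnRNP, 1 Snrp and 0 SR genes) and 0 higher, so 0 Snrp genes higher, against 3.23% and 7.32% of all compared records, and 2 of 48 is near the former. Only 18 members had FPKM within the bounds in both libraries. Of these 6 were at least 2-fold lower (3 SR, 3 hnRNP and 0 Snrp genes), against 6.80% of the 5616 records so restricted, the bounds of 15 lay lower in the knockout, against 31.4%, the SR median was -0.86, and the Snrp median of 0.33 rests on Snrpf and Snrpn alone. No paired analysis was possible because each genotype has 1 library, and for the same reason no replicate could be left out. Depth is unknown, so the smallest difference these libraries could show cannot be stated.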

Other observations

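Some member loci hold other records, and the strand setting of the counting is not known. Gm6793, which lies within the locus of Hnrnpa3, had 289 FPKM in the wild-type and 130.7 in the knockout tumour, more than Hnrnpa3 itself (184.7 and 119.0 FPKM). A record of Gm5643 within the locus of Hnrnpa1 had 34.9 and 22.2 FPKM. Of the 49 members, 16 had at least 1 pseudogene transcript in GENCODE M21 that matched their longest protein-coding transcript at 95% identity or more over at least 300 bases. Hnrnpa3 had 26 such copies, Hnrnpa1 had 9, Hnrnpf had 6, and Srsf3 and Snrpc had 3 each. How reads were shared between members and these copies is not recorded, so the FPKM of these genes is uncertain.

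The microRNA gene Mir7-1 lies in the locus of Hnrnpk. It was listed at 0 in the wild-type and had 43.9 FPKM in the knockout tumour, while Hnrnpk had 336.1 and 226.4 FPKM. Mir697, in the locus of Sf3a3, was also listed at 0 in the wild-type and had 24.7 FPKM in the knockout tumour. Snord111, in the locus of Sf3b3, was listed at 0 in both. How reads were shared between these records and the genes that hold them is not recorded, so their values are uncertain.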
